A study of Drosophila melanogaster with 4 samples.

Results

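Of the 6207 Homothorax peaks that the authors listed, 634 were narrow and stood alone on the chromosome arms 2L, 3L and 3R. A peak was a member when it was at most 2000 bp wide and when the gap to the peak before it and the gap to the peak after it were each over 5000 bp. The remaining 3296 peaks of these arms that were at most 2000 bp wide, called the other narrow peaks here, had a neighbour closer by or lay at the end of an arm. The 3 arms held 4266 peaks in all, of which 336 were over 2000 bp wide and 3930 were narrow. The solitary peaks were therefore 16.1% of the narrow peaks.

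The peaks come from chromatin immunoprecipitation followed by sequencing (ChIP-seq), in which cross-linked chromatin is precipitated with an antibody and its DNA is sequenced. The series has 4 libraries, 2 of Homothorax ChIP DNA and 2 of input DNA, that is, chromatin that was not precipitated. All 4 share their source, whole Drosophila melanogaster embryos of the strain Y cn bw sp, stage label 0 to 8, sex unknown, with no treatment named. The genotype label, also common to ChIP and input, lists y, Gr22b, Gr22d, cn, bw, sp, LysC, MstProx, GstD5 and Rh6 with allele 1, CG33964 and lab with allele R4.2, and oc with allele R3.2. The protocol in the labels speaks of an 8 to 16 h window before it describes an 8 h lay, so it and the stage label are not alike. The serum was a crude guinea pig polyclonal against the full-length, His-tagged protein. Whole embryos mix ages and cell types, and a peak in such a mixture does not tell in which cells the protein was bound.

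Homothorax, the product of hth, belongs to the TALE family of homeodomain proteins. It binds Extradenticle, brings it into the nucleus, and the pair joins Hox proteins on DNA, where the shared complex reads longer and more selective sites than a Hox protein does by itself. In the embryo these cofactors are known for their part in setting segment identity, and Homothorax and Extradenticle also act without Hox partners. Regulatory DNA of developmental genes in the fly is often spread over several enhancers, short stretches that bind transcription factors, around a single gene. A peak far from any other peak is, on the map, a single stretch within a region where none else was listed. Whether several such peaks lie around the same gene was not examined.

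Each peak carries a start, an end and a score that the authors deposited. MACS, named in the file as the source of each line, compares ChIP with input reads, and a higher score is taken here to mark a stronger peak within this list. The unit of the score is unknown here, so it serves for ranks and shares only. There is 1 value per peak for the whole series, none for a library, so no replicate error exists and read depth is unknown. The members were chosen by their measured width and gaps, and gap, width and score all come from the same ChIP-against-input comparison, so all that follows is a description of this list without a test. Positions are on FlyBase release 5, counted from 1. The gene table at hand is of release 6 and no genome sequence was used here, so the gene, exon, intron or UTR at each peak was not analysed here, nor was any sequence motif.

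Solitary peaks were of ordinary strength, and scores of 40 or more were less common among them. Their lowest score was 6.51 and their highest 140.63, around a median of 15.25 and quartiles of 11.02 and 24.04. The other narrow peaks went as low as 5.80 and as high as 310.98, around a median of 15.61 and quartiles of 11.02 and 26.05. Below the median the 2 distributions thus lay almost on each other, and their upper ends parted. The order of the medians is not firm: among peaks of at most 1000 bp they were 14.18 for solitary and 13.83 for other narrow peaks. The score that the highest 10% of peaks passed was 36.82 for solitary and 48.35 for other narrow peaks. A score of at least 20 was found for 231 solitary (36.4%) and 1182 other narrow peaks (35.9%). At 40 or more, a level used here to mark strong peaks, stood 57 solitary peaks (8.99%) and 453 other narrow peaks (13.7%), against 13.0% of all narrow peaks of these arms and 17.5% of the whole list. At 100 or more were 8 solitary (1.26%) and 69 other narrow peaks (2.09%), against 1.96% of all narrow peaks and 4.32% of the whole list. No solitary peak of these 3 arms reached 160, a score that 19 other narrow peaks (0.576%) reached. Under the same rule on 2R, 1 of 168 solitary peaks (0.595%) did, with 165.43. Among the 50 narrow peaks with the highest scores 8 were solitary (16.0%), about their share of all narrow peaks (16.1%). Among the 100 highest 10 were (10.0%), and among the 10 highest none.

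Peaks over 2000 bp, shown for scale, had a median score of 83.52, and 87.2% of them scored 40 or more. Of the 213 peaks at 100 or more on these arms, 136 were over 2000 bp wide, which the width limit leaves out of both narrow sets. Of these wide peaks, 11 also had gaps over 5000 bp on each side, and 9 of the 11 scored 40 or more. The highest of them, at 3R 8470493 to 8476138, was 5646 bp wide and scored 325.39. The next, at 3R 11243096 to 11245789, scored 163.97 and had gaps of 221 kb and 82.1 kb. Isolation and a very high score thus occurred together on these arms, in peaks wider than the limit.

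The share of strong peaks was lower for solitary peaks on each arm, by different margins. On 3R, 12 of 237 solitary peaks (5.06%) scored 40 or more, against 155 of 1186 other narrow peaks (13.1%). On 2L the numbers were 19 of 178 (10.7%) for solitary and 138 of 1067 (12.9%) for other narrow peaks. On 3L they were 26 of 219 (11.9%) for solitary and 160 of 1043 (15.3%) for other narrow peaks. The share was lowest on 3R among the solitary peaks, whereas the other narrow peaks of 3R had nearly the share of 2L. Median scores did not keep 1 order over the arms. They were 14.18 for solitary and 15.80 for other narrow peaks on 2L. On 3L they were 16.17 for solitary and 15.67 for other narrow peaks, and on 3R 14.77 for solitary and 15.34 for other narrow peaks.

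**Figure D1:**
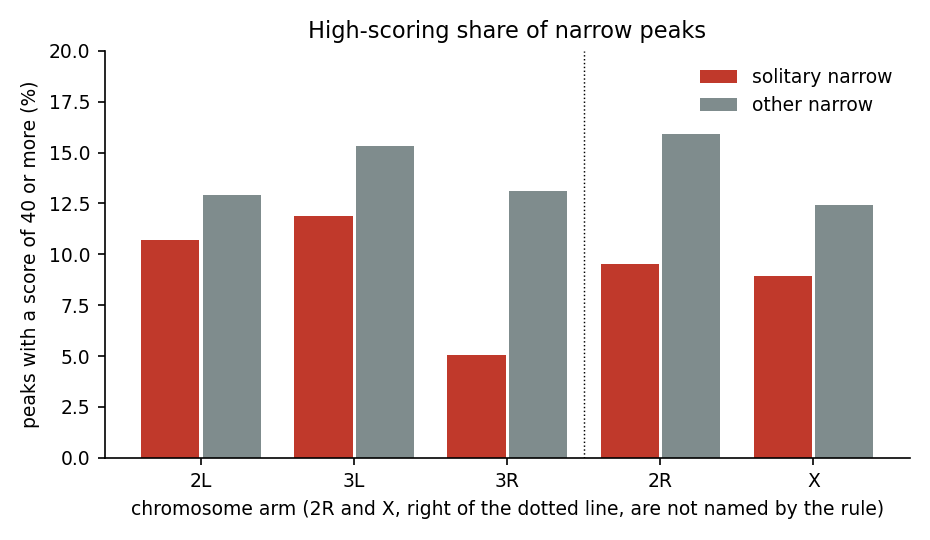
Percentage of narrow peaks with an authors' score of 40 or more (vertical axis, from 0) by chromosome arm, with 2R and X right of the dotted line, solitary peaks drawn in red and other narrow peaks in grey. The red bar is the lower of each pair, by the widest margin on 3R (5.06% of solitary against 13.1% of other narrow peaks).

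The same rule was applied to 2R and X, which its choice of members had not used. On 2R, 168 of 928 narrow peaks were solitary (18.1%), and 9.52% of these scored 40 or more, against 15.9% of the other narrow peaks. On X, 157 of 591 were solitary (26.6%), and 8.92% of these scored 40 or more, against 12.4% of the other narrow peaks. Solitary peaks numbered 7.94 per Mb on 2R and 7.05 on X, and the 3 arms of the rule had 7.94 (2L), 9.55 (3L) and 8.49 (3R). Solitary peaks per Mb thus ranged from 7.05 to 9.55 over these 5 arms, while other narrow peaks ranged from 19.5 on X to 47.6 on 2L. These arms come from the same libraries and the same peak call, so they repeat the count and are not replicates.

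Solitary peaks were also narrower. Their median width was 393 bp, with quartiles of 280.2 and 623.8 bp, whereas the other narrow peaks had a median of 466 bp and quartiles of 294 and 809 bp. Over 1000 bp wide were 64 solitary peaks (10.1%) and 555 other narrow peaks (16.8%). The smallest width in the list, 201 bp, was held by 12 solitary peaks (1.89%) and 64 other narrow peaks (1.94%). The shares at the smallest width were thus alike. Both quartiles and the median were lower for solitary peaks, so the difference was not confined to the wider peaks. The median was lower for solitary peaks on each arm, at 368 bp for solitary against 485 bp for other narrow peaks on 2L, 430 against 458 bp on 3L and 400 against 461 bp on 3R. All solitary peaks together covered 327.5 kb.

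Width and score moved together, with a Spearman rho of 0.75 over the 634 solitary and 0.80 over the 3296 other narrow peaks. This is a description across peaks of 1 list, in which both measures rest on the same reads.

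**Figure D2:**
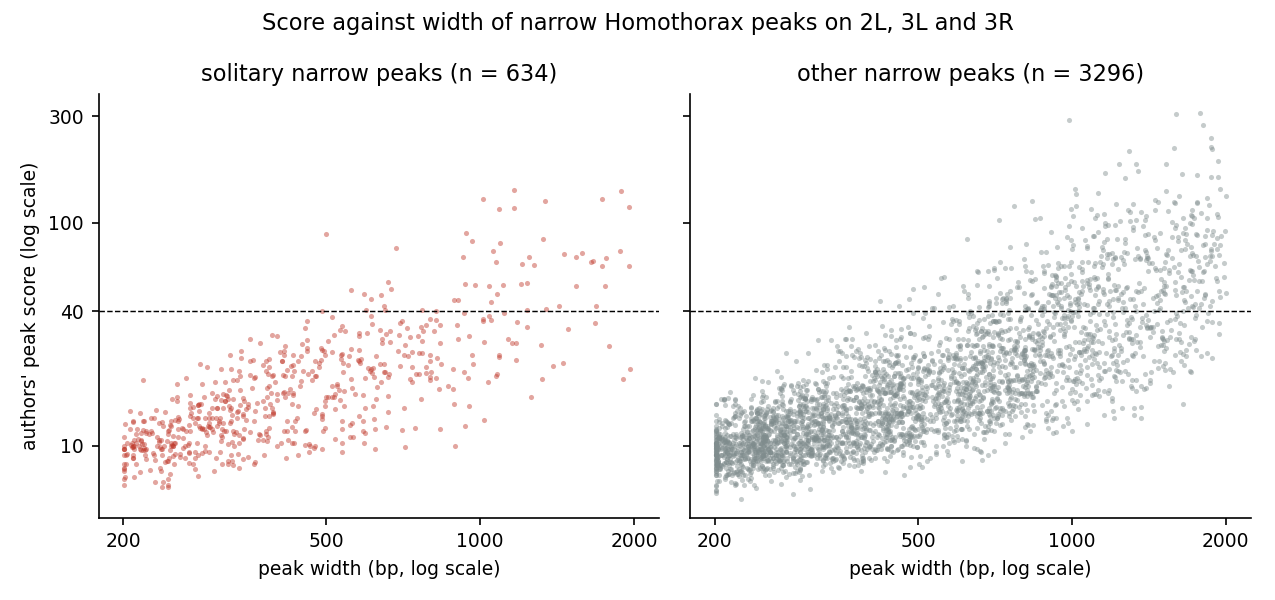
Authors' score (vertical, log scale) against peak width (horizontal, bp, log scale) for the 634 solitary narrow peaks (left) and the 3296 other narrow peaks (right), 1 point per peak; the dashed line marks a score of 40. Both clouds rise together with width, and only the right one reaches above a score of 140.63.

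At equal width the picture changed. Among peaks 301 to 400 bp wide the median score was 14.34 for 130 solitary and 12.48 for 505 other narrow peaks. At 401 to 500 bp it was 18.20 for 82 solitary and 14.90 for 387 other narrow peaks. At 501 to 700 bp it was 21.89 for 100 solitary and 18.19 for 500 other narrow peaks. In these 3 classes the solitary median was thus the higher, in 9 of 9 pairings of the classes with the 3 arms. The margin could be small, as on 3L at 401 to 500 bp, 15.47 for solitary and 15.00 for other narrow peaks. These are the 3 of 6 classes where the pooled solitary median exceeded the other most, so the 9 of 9 is not separate support. On 2R and X the solitary median was the higher in 4 of 6 such pairings.

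Below and above this range the medians of the pooled arms were close. At 201 to 300 bp the medians were 10.44 for 193 solitary and 10.33 for 872 other narrow peaks. The solitary median of this class was the higher on 2 of 3 arms. At 701 to 1000 bp they were 25.44 for 65 solitary and 26.08 for 477 other narrow peaks, and 13.8% of the solitary against 23.5% of the other narrow peaks scored 40 or more. At 1001 to 2000 bp they were 43.23 for 64 solitary and 44.93 for 555 other narrow peaks, with 56.2% of the solitary and 56.4% of the other narrow peaks at 40 or more. In these upper classes the solitary median was the higher in 3 of 6 pairings with an arm, so no direction was common to the arms. Within an arm the medians could lie far apart. At 1001 to 2000 bp they were 51.83 for solitary and 41.37 for other narrow peaks on 2L. On 3L they were 63.74 for solitary and 48.72 for other narrow peaks, and on 3R 37.43 and 45.09 in the same order.

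The strong share of the other narrow peaks, weighted to the width classes of the solitary ones, came to 8.99%, the same figure as the 8.99% observed for solitary peaks. Their median score weighted in this way was 13.99, below the 15.25 of the solitary peaks. The equal strong shares held for the pooled arms only. Weighted within an arm, they were 5.06% for solitary and 8.38% for other narrow peaks on 3R, 10.7% for solitary and 7.27% for other narrow peaks on 2L, and 11.9% for solitary and 11.6% for other narrow peaks on 3L. The solitary share at equal width was thus lower on 3R, higher on 2L and close on 3L. The solitary median score was above the weighted median on each arm, at 14.18 for solitary against 13.20 for other narrow peaks on 2L, 16.17 against 15.00 on 3L and 14.77 against 13.75 on 3R.

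**Figure D3:**
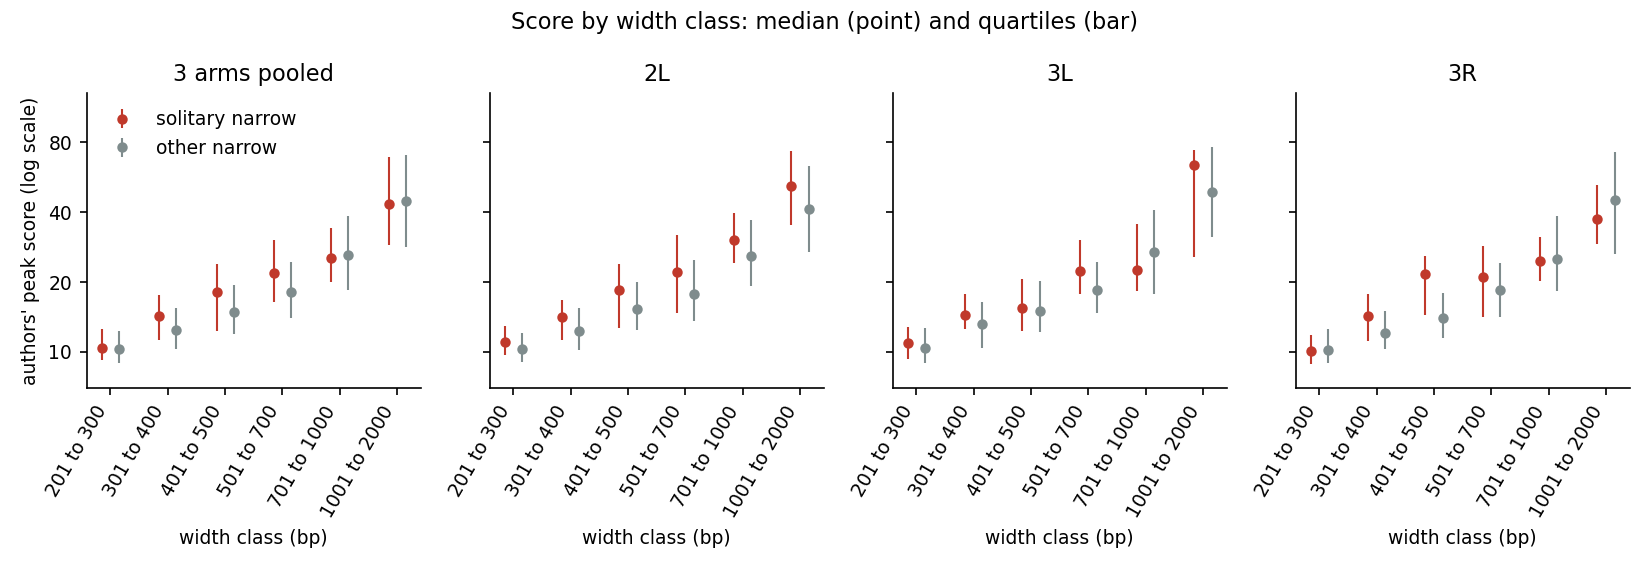
Authors' score (vertical, log scale) by peak width class (horizontal, bp) for solitary (red, left of each pair) and other narrow peaks (grey), with the median as a point and the quartiles as a bar, for the 3 arms pooled and for each arm. The red points lie above the grey ones from 301 to 700 bp in all 3 arms and not uniformly elsewhere.

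The distance to the nearest neighbour was examined in steps to see whether the solitary peaks were the end of a gradient. The other narrow peaks with a neighbour at most 5000 bp away fell into 5 classes of the smaller gap. Their median score was 16.04 at gaps of 0 to 200 bp, 16.17 at 201 to 500 bp, 14.29 at 501 to 1000 bp, 14.71 at 1001 to 2000 bp and 15.07 at 2001 to 5000 bp, beside 15.25 for solitary peaks. The median did not fall or rise steadily with distance. Strong peaks made up between 10.9% and 14.8% of these 5 classes, and 14.0% in the class next to the limit. For widths of 301 to 700 bp alone, the medians of the 5 classes lay between 14.36 and 15.21, whereas the 312 solitary peaks of these widths had 16.73. These are the widths where the pooled solitary median exceeded the other most, so the higher solitary value restates that difference and is not separate support.

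The peaks just inside and just outside the limit were looked at more closely. Narrow peaks whose smaller gap was 5001 to 5500 bp, just inside the rule, numbered 40 and had scores from 6.51 to 125.05, with a median of 13.42, and a median width of 355.5 bp. Those whose smaller gap was 4501 to 5000 bp, just outside, numbered 42 and had scores from 8.10 to 89.84, with a median of 19.58, and a median width of 613.5 bp. The nearest members were the peaks at 2L 6841365 to 6841611, with a gap of 5002 bp and a score of 9.59, and the pair at 2L 15402750 to 15403028 and 15408037 to 15408328, which face each other over 5008 bp and scored 13.30 and 22.58. The nearest peaks outside were at 3R 26677414 to 26678028, with a gap of 4991 bp and a score of 49.16, at 3R 6499467 to 6499955, with 4985 bp and 13.29, and at 2L 20916786 to 20917179, with 4977 bp and 17.89. Low and high scores thus occurred on either side of the limit, while the peaks just outside had the higher median score and were the wider ones. In wider gap classes the order of the median scores was reversed. It was 16.57 for solitary peaks with smaller gaps of 5 to 10 kb and 15.07 for other narrow peaks with 2001 to 5000 bp. Their median widths, 441 and 473 bp, kept the order.

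Most solitary peaks lay much farther from their neighbours than the limit asks. The smaller of the 2 gaps had a median of 14.6 kb and quartiles of 7.99 and 28.0 kb, and the larger had a median of 54.4 kb and quartiles of 24.9 and 126 kb. On the near side, 413 of 634 (65.1%) had no peak within 10 kb, 71 (11.2%) none within 50 kb and 25 (3.94%) none within 100 kb. On the far side, 198 (31.2%) looked onto more than 100 kb without a listed peak. The gaps are values that the rule used, and the larger exceeds the smaller by definition.

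**Figure D4:**
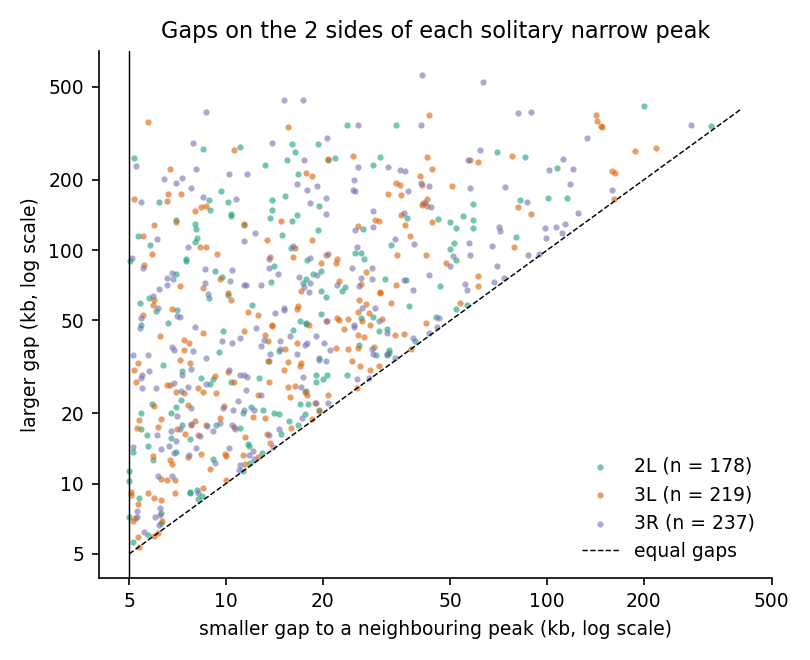
The larger (vertical) against the smaller (horizontal) gap to a neighbouring peak for each of the 634 solitary narrow peaks, in kb on log scales, coloured by arm; the dashed line marks equal gaps and the solid line the 5 kb limit. Points fill the area above the line on all 3 arms, up to a smaller gap of 323 kb.

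Greater isolation did not go with a steady change in score. Solitary peaks with a smaller gap of 5 to 10 kb (221 peaks) had a median score of 16.57, those with 10 to 20 kb (186) 15.18, those with 20 to 50 kb (156) 13.80 and those with over 50 kb (71) 15.43. Strong peaks were 9.95%, 8.06%, 7.05% and 12.7% of these classes in the same order. Spearman's rho between score and the smaller gap was -0.05 over the 634 peaks, and between score and the larger gap -0.03. The most isolated class held 9 strong peaks but none above 66.84.

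The 5 most isolated members spanned the common range of scores. The peak at 2L 16859136 to 16859459, 324 bp wide, had 323 kb before it and 340 kb after it without a peak, and scored 25.63. The peak at 3R 1833643 to 1833951, with gaps of 280 and 345 kb, scored 9.42. The peak at 3L 20176373 to 20176609, with gaps of 274 and 218 kb, scored 9.72. The first of these ranked 135 among the solitary peaks, and the next 2 were near the low end. The peak at 2L 15107224 to 15107574, with gaps of 416 and 200 kb, scored 15.43. The peak at 3L 13667852 to 13668448, 597 bp wide with gaps of 265 and 188 kb, scored 40.78 and was the only 1 of the 5 at 40 or more. Whether reads can be mapped throughout these stretches was not tested.

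The 10 strongest solitary peaks lay on 3L (5 peaks), 2L (4) and 3R (1), and 8 of them were over 1000 bp wide. The strongest, at 3L 19629600 to 19630765, was 1166 bp wide and scored 140.63, with 23.9 kb to the peak before and 17.9 kb to the peak after it. It ranked 23 among all narrow peaks of the 3 arms. The second, at 3L 6302559 to 6304449, was 1891 bp wide and scored 138.72, with 88.4 and 22.0 kb free on its sides.

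The third, at 2L 19459066 to 19460080, scored 127.09 over 1015 bp, and it was the only 1 of the 10 with more than 30 kb free on each side, 32.7 kb before and 105 kb after. The fourth, at 3L 21268731 to 21270461, scored 127.08, and 208 kb before it held no peak. The fifth, at 3L 12608545 to 12609885, scored 125.05 and was a member by a small margin, with gaps of 5.34 and 5.35 kb. These strong peaks thus included well isolated stretches and 1 that a slightly longer limit would leave out.

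The sixth, at 3R 6396073 to 6398030, scored 117.43 and was the only strong peak of this group on 3R. The next 2 were at 2L 6561460 to 6562626, with 116.22, and at 3L 15024438 to 15025526, with 115.70. The last 2 were the compact ones. The peak at 2L 20069278 to 20070217 was 940 bp wide and scored 90.09, and the peak at 2L 540677 to 541176 was 500 bp wide and scored 89.08. This last peak stood far above the median of 18.20 for solitary peaks of 401 to 500 bp, and above the 50.25 that the highest other narrow peak of that width class reached. Its neighbours were 16.7 and 141 kb away.

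At the limits of width, the 3 widest members scored 22.15 at 2L 6818651 to 6820613 (1963 bp), 117.43 at 3R 6396073 to 6398030 (1958 bp) and 63.74 at 2L 21909221 to 21911175 (1955 bp). All 3 were above the solitary median of 15.25. The 18 members of 1501 to 2000 bp had scores from 19.91 to 138.72 with a median of 65.29, and the 5 isolated peaks just over the limit, at 2001 to 2500 bp, had scores from 31.16 to 95.45 with a median of 41.85. Of the 12 members at the smallest width of 201 bp, the first 3 by position, at 2L 35562 to 35762, 2L 11234504 to 11234704 and 2L 21168352 to 21168552, scored 7.88, 9.72 and 10.96.

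Solitary peaks were found along the whole of each arm. Over 71 whole bins of 1 Mb, solitary peaks numbered 8.69 ± 3.15 per bin (SD across bins), with a lowest value of 3, a median of 9 and a highest of 19. Other narrow peaks numbered 45.3 ± 29.2 per bin, from 5 to 135 with a median of 37. The standard deviation was 0.363 times the mean for solitary and 0.646 times the mean for other narrow peaks. On 3R there were 3 to 13 solitary and 5 to 135 other narrow peaks per bin. The rule moves every peak with a close neighbour into the other set, so the smaller relative spread of the solitary peaks restates that choice.

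Bins rich in other peaks held about as many solitary ones as bins poor in them. In the 18 bins with the fewest other narrow peaks (5 to 24, mean 15.8) there were 8.00 ± 2.70 solitary peaks (SD across bins). In the next 18 bins (25 to 37) there were 9.67 ± 3.33, and in the 17 bins after them (38 to 60) 8.35 ± 2.55. In the 18 bins with the most other narrow peaks (65 to 135, mean 87.3) there were 8.72 ± 3.85. Spearman's rho between the 2 numbers was 0.06 over the 71 bins, a description of bins that share libraries and depth. The gap rule itself acts on this relation, because a bin crowded with peaks leaves less room for a peak with free flanks.

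**Figure D5:**
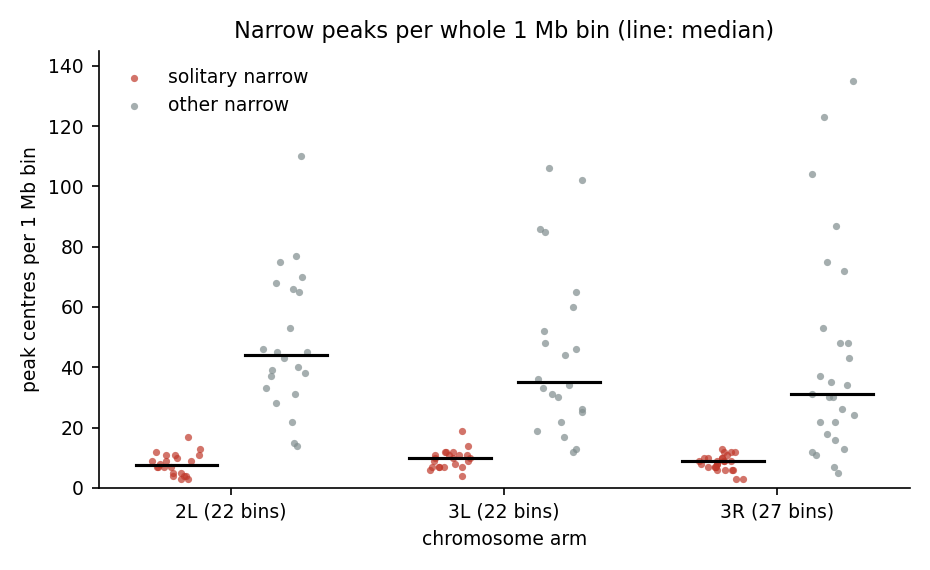
Peak centres per whole 1 Mb bin (vertical axis) on 2L, 3L and 3R, 1 point per bin, with solitary narrow peaks in red on the left of each pair, other narrow peaks in grey, and the median as a black line. The red points lie between 3 and 19 on all arms, whereas the grey points run from 5 to 135.

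No whole 1 Mb bin was without a solitary peak, and each region of an arm had a share. With each arm cut into 3 stretches of equal length up to the end of its last peak, in the direction of the coordinates, 2L held 58, 57 and 63 solitary peaks, 3L 77, 79 and 63, and 3R 79, 85 and 73. Their median scores in the same order were 12.95, 14.71 and 15.44 for 2L, 17.66, 17.98 and 14.42 for 3L, and 15.05, 15.39 and 12.95 for 3R. The score did not change in a common direction along the 3 arms.

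The order of solitary peaks and runs along the arms was counted next. If each run of peaks with gaps of at most 5 kb counts as 1 unit, the 3 arms held 1316 units, of which 634 (48.2%) were solitary narrow peaks. Of the 634, 465 (73.3%) had at least 1 solitary neighbour and 161 (25.4%) had 1 on each side. The 48.2% is a share of single units, whereas each solitary peak has 2 neighbours. With 2 neighbours, at least 1 solitary is likelier, and both solitary less likely, than for a single unit. Neither share can therefore be set directly against the 48.2%. Whether solitary peaks lay side by side more often than their share gives was not tested. In consecutive order they formed 169 single occurrences and 152 series of 2 or more, and 20 of these series held 5 or more peaks and 125 peaks in all. The longest series counted 8 and occurred 5 times. On 3R, such a series ran from 16431008 to 17122321, 691 kb with scores from 10.14 to 53.86. On 3L, the series from 20938896 to 21297769 covered 359 kb with scores from 7.70 to 127.08. In these stretches Homothorax peaks came 1 at a time.

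Solitary peaks were also far from the strong and wide peaks of the arms. The nearest peak over 2000 bp wide was at a median distance of 140 kb from a solitary and 15.4 kb from an other narrow peak, and it was within 20 kb for 59 solitary (9.31%) and 1798 other narrow peaks (54.6%). The nearest other peak with a score of 100 or more was at a median of 185 kb from a solitary and 33.3 kb from an other narrow peak. A neighbour within a long run, 10 or more peaks spaced by no more than 5 kb, was found for 64 solitary peaks (10.1%). It was found for 1413 of the 3290 other narrow peaks with a neighbour on each side (42.9%). The rule keeps all peaks at least 5 kb away from a member, so part of each of these distances is fixed by the choice of members. A peak inside a long run has neighbours in that run and cannot be solitary, so the rule also fixes part of that contrast.

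Beside its 2 neighbours a solitary peak was about equally often the strongest, the middle or the weakest. It outscored both in 209 cases (33.0%), 1 of them in 213 (33.6%) and neither in 212 (33.4%). Of the 3290 other narrow peaks with a neighbour on each side, 28.5% outscored both and 36.7% neither. The neighbours were not alike: 6.15% of solitary and 15.7% of these other narrow peaks had a neighbour over 2000 bp wide.

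A run of closely spaced peaks can be set beside a solitary peak as a single bound region. The strongest peak of a run had a median score of 23.56 over 235 runs of 2 peaks, 44.45 over 193 runs of 3 to 4, 66.39 over 153 runs of 5 to 9 and 122.49 over 87 runs of 10 or more, against 15.25 for the solitary peaks. A score of 40 or more was reached by the strongest peak in 26.4%, 56.0%, 73.9% and 94.3% of these runs, in order of size, against 8.99% of the solitary peaks. The maximum of several values rises with their number by construction. These runs include peaks over 2000 bp. Narrow peaks alone had a median score of 15.31 in runs of 2, 15.43 in runs of 3 to 4, 15.07 in runs of 5 to 9 and 16.17 in runs of 10 or more, and 11.6%, 14.4%, 13.1% and 14.6% of them scored 40 or more. Without regard to width, the median score of narrow peaks was thus much the same in a run of any size as alone, and the strong share was lowest for solitary peaks. The median width was 393 bp for solitary peaks and between 442 and 502.5 bp for narrow peaks in the 4 run classes.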

How the data were processed

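The authors' peak table was used as deposited. MACS called the peaks and positions refer to FlyBase release 5, per the file headers. The submitters' processing notes name BDGP5, CASAVA 1.7.0.2 and 1.7.0.3, BWA and MACS2. The score per peak is the authors' own value. Its scale, the calling threshold and any pooling of the 2 ChIP libraries are not stated in those sources. Read depth is unknown.

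Widths, gaps, runs, bins and shares were computed in pandas 2.3.3 and numpy 2.4.6 under Python 3.11.15, intervals in scipy 1.17.1 and figures in matplotlib 3.10.9. The sorting of peaks was checked on simulated lists. A first or last peak of an arm has 1 gap and was not a member. Named regions are the 10 highest scores, the 5 most isolated, the 3 nearest to the gap limit on each side, and the 3 widest and narrowest; ties go by position. Isolated peaks over 2000 bp and the longest series were named after their values were seen. The members, the score levels and the classes were chosen with earlier results of these data known. No test was run, since the members were chosen by the measured values and no value belongs to a library. The planned motif, GC and gene results were not run.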

Additional observations from a re-analysis of the deposited data

How the results depend on the processing

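A value counts as moved when it left the 95% exact binomial interval of the reported share, or the interval of order statistics of the reported median, and a number when it changed by over 1.5 times. These intervals cover counting over peaks only. With gaps over 2000 bp, 1040 narrow peaks were solitary (26.5%) and their median width was 422.5 bp. With gaps over 10000 bp, 413 were (10.5%). With widths of at most 1000 bp, the median score was 14.18 for solitary and 13.83 for other narrow peaks, and the median width 364.5 bp for solitary and 400 bp for other narrow peaks. Among peaks at or above the median score of the list, 278 were solitary, with median scores of 25.63 for solitary and 27.62 for other narrow peaks and median widths of 636.5 bp for solitary and 822.5 bp for other narrow peaks. Where weaker peaks were dropped before gaps were taken, 29.4% were solitary, with median scores of 26.43 for solitary and 27.65 for other narrow peaks and median widths of 685.0 bp for solitary and 836.0 bp for other narrow peaks. After merging of peaks at most 1000 bp apart, with the highest score kept, 41.4% were solitary, with median scores of 16.18 for solitary and 16.17 for other narrow peaks and median widths of 458.5 bp for solitary and 598.0 bp for other narrow peaks. Weighted to the width classes of the solitary peaks, the other narrow peaks had a median score of 13.99. Solitary peaks had the lower median width in each of these settings that recomputed it and without each arm. Their share at 40 or more was also the lower, except under the weighting, where both were 8.99% for the pooled arms and the solitary share was the higher on 2L and 3L. Their median score was the lower or the higher depending on the setting, and without 2L it was 15.67 for solitary and 15.45 for other narrow peaks. Of 79 alternatives to the reported values, 48 counted as unmoved. Leaving out arms, counting arm ends, the weighting of the strong share and the recomputed strong shares, and the medians after merging or after the earlier drop, were chosen after the data were seen. No paired analysis was possible because only 1 score per peak exists for all libraries together, so none could be left out either. The motif, GC and gene settings were not run, since no release 5 sequence or annotation was used here. Read depth is unknown, so no limit from depth can be given.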

Other observations

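A few values lie outside the comparisons above. Of the 6 peaks at the ends of the 3 arms, all narrow, 3 had their single gap over 5000 bp: the first and the last peak of 2L, at 5566 to 5966 and 22429504 to 22429820, with scores of 9.90 and 8.83, and the first of 3R, at 262 to 848, with 11.64. With these counted as solitary the number was 637. The last peak of 2L lay 344 kb beyond the peak before it. On the small chromosome 4, 14 of 45 narrow peaks were solitary (31.1%), none of them scored 40 or more, and 1 of the 31 others did. Scores were often shared between peaks: the 634 solitary peaks held 412 distinct scores, and the commonest, 10.02, occurred 13 times. The 3296 other narrow peaks held 1597 distinct scores, of which 10.97 occurred 29 times.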
